A study of Caenorhabditis elegans with 45 samples.

Results

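The comparison was of worms that had just been given food after dauer with worms that had grown without interruption. It used 6 of the 45 libraries of the series, all of polyadenylated RNA from whole Caenorhabditis elegans of the wild-type strain N2, chosen by their labelled course and hour. The first group was 3 libraries of dauer larvae plated on OP50, the bacterial food of the laboratory worm, and collected 1, 2 and 3 hours after plating (here just-fed dauer). The second was 3 libraries of larvae that had hatched overnight from purified eggs, had been put on OP50 plates as first-stage larvae and were collected under the sample names 21, 22 and 23 hours (here continuous). Per the labels that culture grew slowly, and its worms were 22, 23 and 24 hours into development at these points. Both groups carry no mutation or transgene in the labels. How the dauer larvae were obtained, the growth temperature and the larval stage of the continuous worms were not given in the sources used here. The question that this pairing addresses is what sets a dauer larva that has only begun to feed apart from a growing larva.

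The dauer larva is an alternative larval stage that forms under crowding, heat or lack of food. It does not feed, its pharynx is silent, its mouth is closed by a special cuticle, and it lives on stored fat with little aerobic metabolism. Insulin-like, TGF-beta and steroid hormone signals, read from pheromone and food by ciliated sensory neurons, decide whether a larva enters or leaves the stage. A larva on food instead passes through molts, and at each molt the epidermis secretes a new collagen cuticle in a timed wave of gene activity.

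Each hour was 1 library, so the 3 hours of a window stood in for replicates. The errors and p-values below measure only the spread between these libraries, which includes any change from hour to hour, and the labels do not say whether the hours came from separate cultures. Each window also lay within 1 course, so the state of the worms and the course cannot be told apart. In whole worms, fewer cells of a type and less RNA per cell cannot be told apart either. Total counts were 20774909 to 23815414 per library in just-fed dauer and 21509477 to 24303197 in continuous larvae, and the genes with at least 1 count numbered 16722 to 17103 in just-fed dauer and 16430 to 16507 in continuous larvae. Values are given as normalised CPM, that is counts scaled to CPM with a library size corrected for composition by TMM (trimmed mean of M values). The TMM factors were 1.1052 to 1.1201 in just-fed dauer and 0.84 to 0.9584 in continuous larvae.

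Of 13863 genes tested, 1916 (13.8%) were higher and 2313 (16.7%) were lower in just-fed dauer than in continuous larvae, by an adjusted p under 0.05 in edgeR's quasi-likelihood F-test and a change of at least 1 on the log2 scale, which is 4229 or 30.5% together. The words rose, fell, higher and lower refer to these calls when a gene list is counted. Where none of a list is said to have risen or fallen, at most 2 of its members had an unadjusted p under 0.05 in that direction by edgeR and DESeq2 called none, unless other counts are given. All 3 just-fed dauer libraries lay above all 3 continuous ones for 31.2% of the tested genes and below them for 31.1%. The log2 fold changes run as just-fed dauer over continuous, and their median over all tested genes was 0.02. Losses were the larger changes. The median called gene was lower by 2.48 on the log2 scale (quartiles 1.5 and 4.40) or higher by 1.62 (quartiles 1.28 and 2.22). A change of at least 8-fold was seen in 938 of the lower and 242 of the higher genes. With scaling by library size alone the split became 2860 higher and 1840 lower, and with upper-quartile factors 2595 higher and 1947 lower. Those scalings moved the median of all genes to 0.33 and 0.25, so a change of a gene near the threshold depends on the scaling.

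**Figure D1:**
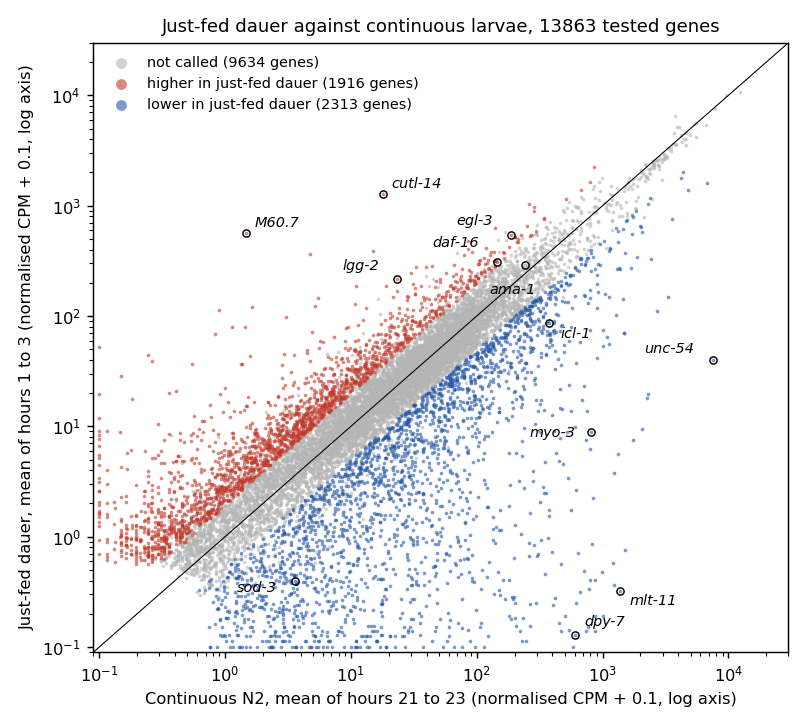
Mean normalised CPM of each tested gene in just-fed dauer (y axis, mean of hours 1 to 3) against continuous larvae (x axis, mean of hours 21 to 23), both on log axes, with called genes coloured by direction and the named genes circled. The 2313 lower genes reach much farther from the diagonal than the 1916 higher ones.

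The growing worms pass through a molting cycle, and 3 consecutive hours cover only a part of it. The called genes were therefore also set against all 16 continuous libraries, hours 21 to 36. All 3 just-fed dauer libraries lay above the whole range of those 16 for 1538 of the 1916 higher genes (80.3%) and below it for 1674 of the 2313 lower genes (72.4%), against 22.5% and 17.0% of all tested genes. For the rest, a just-fed dauer library fell inside the range that growing worms covered at another hour.

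The libraries labelled as dauer were checked against genes known as dauer markers, and several of these were at or near 0. The mitochondrial superoxide dismutase gene sod-3, a FOXO target that is high in dauer larvae, had 0.715, 0.0872 and 0.0789 normalised CPM in just-fed dauer at 1, 2 and 3 hours, against 3.40, 3.38 and 3.72 in continuous larvae at 21, 22 and 23 hours. The small heat shock gene hsp-12.6, another such target, had 1.77, 0.305 and 0.592 normalised CPM in just-fed dauer and 0.194, 0 and 0.196 in continuous larvae, and did not pass the low-count filter. By these values sod-3 was lower in all 3 dauer libraries, and both genes were highest within dauer at 1 hour.

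Transcripts of the dauer cuticle were near 0 as well. Of 7 cuticle genes listed for the dauer stage or the alae, 3 passed the low-count filter. Of these 2 fell and none rose, against 16.7% lower over all tested genes. Cut-6 had 0.188, 0.174 and 0.276 normalised CPM in just-fed dauer and 1.16, 5.09 and 12.99 in continuous larvae. The log2 fold change of cut-4 was -1.81 ± 0.50. Both were below all 16 continuous libraries. The next 3 genes did not pass the filter. The collagen gene col-40 had 0.489, 0.0872 and 0.158 normalised CPM in just-fed dauer and no count in any continuous library, and cut-1, which encodes a cuticlin of the dauer cuticle, had 0.865, 0.218 and 0.276 in just-fed dauer and 0.0485, 0 and 0.147 in continuous larvae. The collagen gene col-2, known for activity as dauer forms, had a single nonzero dauer library at 0, 0 and 0.158 normalised CPM, and 0.0485, 0 and 0.0490 in continuous larvae. The chaperone gene hsp-90, whose transcript is known to be abundant in dauer, had 5487, 7763 and 6184 normalised CPM in just-fed dauer and 3635, 3944 and 3714 in continuous larvae, 1.72-fold higher (edgeR adjusted p = 0.00666) and under the fold threshold. Libraries from before feeding were not analysed here, so the label rests on the course and not on these markers.

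Signals that set entry into and exit from dauer came first. Of 17 genes between the insulin receptor and its FOXO transcription factor, 1 was higher and 2 were lower. The background over all tested genes was 13.8% higher and 16.7% lower. The FOXO gene daf-16, which promotes dauer when insulin signalling is low, had 493, 227 and 209 normalised CPM in just-fed dauer and 151, 145 and 142 in continuous larvae. All 3 dauer libraries were above the continuous ones and the 1 hour library stood far above the other two. The log2 fold change of daf-16 was 1.08 ± 0.34 (SE, edgeR adjusted p = 0.0413). Without the 1 hour library it was 0.58 and under the fold threshold, and leaving out any library other than the one of 3 hours also ended the call.

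Akt-1 and pdk-1 encode kinases that keep DAF-16 out of the nucleus. The akt-1 transcript had 37.3, 26.5 and 28.2 normalised CPM in just-fed dauer and 57.4, 68.4 and 86.1 in continuous larvae, and the groups did not overlap (log2 fold change -1.205 ± 0.21, edgeR adjusted p = 0.00559). For pdk-1 the values were 5.72, 6.15 and 9.39 in just-fed dauer and 13.3, 13.99 and 18.8 in continuous larvae (log2 fold change -1.12 ± 0.25, edgeR adjusted p = 0.0143). Both lost the call when scaled by library size, at -0.88 for akt-1 and -0.80 for pdk-1, and pdk-1 also lost it without the dauer library of 1 or 2 hours or the continuous library of 23 hours (-0.98, -1.02 and -0.97). The receptor gene daf-2 had 78.3, 67.4 and 71.5 normalised CPM in just-fed dauer and 76.3, 76.7 and 64.2 in continuous larvae, which overlap, and its log2 fold change was -0.00 ± 0.12.

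Tested insulin-like ligand genes were called more often than genes of their receptor pathway. Of 39 ligand genes, 25 passed the low-count filter, 11 of which were higher and 3 lower (17 higher without the dauer library of 3 hours). Of all tested genes 13.8% were higher and 16.7% lower. The filter admits a gene that is high in 1 group alone, so these counts do not describe all 39 ligands. The dauer groups did not overlap the continuous ones for ins-6, which promotes exit from dauer: it had 34.3, 33.3 and 22.1 normalised CPM in just-fed dauer and 8.30, 8.38 and 7.94 in continuous larvae (log2 fold change 1.87 ± 0.20, edgeR adjusted p = 0.00149). Its partner in that role, daf-28, had 17.8, 28.6 and 21.6 in just-fed dauer and 12.8, 14.4 and 12.99 in continuous larvae, a log2 fold change of 0.76 ± 0.20 that did not reach the fold threshold. Ligands that act against the receptor were higher as well. One of them, ins-18, had 18.4, 15.04 and 11.6 normalised CPM in just-fed dauer and 3.93, 3.28 and 4.02 in continuous larvae, and another, ins-1, had 13.7, 11.2 and 7.61 in just-fed dauer and 4.27, 3.28 and 3.43 in continuous larvae. The widest gain was that of ins-10, at 6.13, 7.50 and 4.93 normalised CPM in just-fed dauer and 0.776, 0.428 and 0.294 in continuous larvae, 12.25-fold higher. The 3 that fell were ins-33, at 0.376, 0.436 and 0.552 in just-fed dauer and 13.2, 8.90 and 8.92 in continuous larvae, ins-27 with a log2 fold change of -3.75 ± 0.20, and the agonist ins-4 with -1.87 ± 0.37, which lost its call against hours 21 to 28 (-1.02). Ligands of both signs of action on the receptor were thus among those that rose.

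In the TGF-beta branch, which favours growth when food is plentiful, 2 of 7 genes rose and none fell. Over all tested genes 13.8% rose and 16.7% fell. The ligand gene daf-7, made by a pair of sensory neurons, had 50.5, 57.7 and 55.1 normalised CPM in just-fed dauer and 22.8, 20.1 and 19.2 in continuous larvae, 2.63-fold higher (edgeR adjusted p = 0.000825). It lies on chromosome III at 811844 to 813773 in WBcel235. The SMAD gene daf-3, which promotes dauer when the ligand is absent, had 78.5, 66.4 and 45.04 in just-fed dauer and 33.4, 26.03 and 23.1 in continuous larvae (log2 fold change 1.203 ± 0.25). The other 5 genes did not pass, among them the receptor gene daf-1 (log2 fold change 0.22 ± 0.12) and the SMAD gene daf-14 (0.69 ± 0.26).

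Of 11 genes of the steroid hormone branch 9 were tested and 3 fell, against 16.7% of all tested genes. These were hsd-3, a hydroxysteroid dehydrogenase gene at 0.188, 0.218 and 0.394 normalised CPM in just-fed dauer and 8.15, 14.3 and 10.4 in continuous larvae, dhs-16 at 4.52, 2.22 and 2.48 in just-fed dauer and 11.9, 18.7 and 17.1 in continuous larvae, and the sterol methyltransferase gene strm-1 with a log2 fold change of -1.31 ± 0.41. None of these 3 lay outside the range of the 16 continuous libraries. Dhs-16, which acts in hormone synthesis, lost its call against hours 21 to 36 (-1.29), and so did strm-1 (-0.37). Neither daf-9, which makes the hormone (log2 fold change 0.27 ± 0.23), nor daf-12, which encodes its receptor (-0.40 ± 0.18), passed the test.

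The pheromone genes divided by role. Of 14 listed, 10 were tested. All 5 that fell encode peroxisomal enzymes that shorten the side chains of the ascaroside pheromones: daf-22, dhs-28, acox-1.1, maoc-1 and acox-3. Daf-22 had 63.6, 66.03 and 82.3 normalised CPM in just-fed dauer and 224, 237 and 248 in continuous larvae, 3.34-fold lower. Dhs-28 had 40.6, 74.9 and 104.1 in just-fed dauer and 441, 468 and 462 in continuous larvae, and within dauer it was higher at each later hour. All 5 that rose act in the neurons that sense pheromone or food: the channel genes tax-2 and tax-4, the guanylyl cyclase gene daf-11, and the G protein genes gpa-2 and gpa-3. Gpa-3 had 18.9, 15.7 and 11.1 normalised CPM in just-fed dauer and 3.74, 2.67 and 2.25 in continuous larvae (log2 fold change 2.399 ± 0.29, edgeR adjusted p = 0.00202), and tax-4 had 4.93, 3.01 and 2.17 in just-fed dauer and 1.02, 0.428 and 0.735 in continuous larvae.

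Genes of defence against oxidants, heat and drying, for which dauer larvae are known, were lower or not called in most cases. Of 20 tested antioxidant genes none rose (1 by DESeq2) and 8 fell, against the background of 16.7% lower. The cytosolic superoxide dismutase gene sod-1 had 59.5, 57.1 and 65.7 normalised CPM in just-fed dauer and 207, 205 and 231 in continuous larvae, the peroxisomal catalase gene ctl-2 had 11.2, 22.97 and 31.9 in just-fed dauer and 179, 175 and 173 in continuous larvae, and the peroxiredoxin gene prdx-2 had 194, 338 and 333 in just-fed dauer and 812, 931 and 1137 in continuous larvae. None of these groups overlapped. Reads of ctl-2 may be shared with other, near-identical catalase genes. Among 9 tested small heat shock genes 3 fell and none rose (1 by DESeq2), and hsp-25 had 24.6, 35.96 and 42.9 normalised CPM in just-fed dauer and 197, 189 and 177 in continuous larvae. Of 14 such genes, 5 did not pass the low-count filter.

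Of 8 tested desiccation and metal response genes 2 rose and 2 fell, against 13.8% higher and 16.7% lower of all tested genes. The metallothionein gene mtl-2 had 2.07, 3.53 and 3.35 normalised CPM in just-fed dauer and 66.8, 63.3 and 75.7 in continuous larvae, 22.98-fold lower, and dur-1, named for its rise in dauer, had 51.8, 13.6 and 16.21 in just-fed dauer and 256, 289 and 334 in continuous larvae. The late embryogenesis abundant gene lea-1, which protects drying dauer larvae, had 96.1, 82.5 and 67.1 in just-fed dauer and 140.4, 136 and 144 in continuous larvae and did not reach the fold threshold (log2 fold change -0.78 ± 0.15). In the other direction gpdh-1, which makes glycerol as an osmolyte, had 387, 276 and 170.3 normalised CPM in just-fed dauer and 40.1, 28.03 and 29.8 in continuous larvae, 8.51-fold higher (edgeR adjusted p = 0.00157).

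Genes of energy metabolism were mostly lower. Respiratory chain and ATP synthase genes made up 1.17, 1.19 and 1.37% of all counts in just-fed dauer at 1, 2 and 3 hours, against 2.04, 2.06 and 2.103% in continuous larvae at 21, 22 and 23 hours. The exact permutation p of this share, two-sided, was 0.1, the smallest that 3 against 3 libraries can give, and so were those of the other shares given below except that of the C-type lectins. Of the 38 genes, 30 fell, none rose, and the median log2 fold change was -1.13, against 0.02 over all tested genes. Many lay close to the threshold: scaled by library size 7 of the 38 fell, and with upper-quartile factors 12. Of the 38, 36 were below all 16 continuous libraries, against 17.0% of all tested genes. The cytochrome oxidase gene cox-6C had 74.2, 76.6 and 95.7 normalised CPM in just-fed dauer and 236, 277 and 246 in continuous larvae, and the ATP synthase gene atp-2 had 1865, 1928 and 2293 in just-fed dauer and 3997, 4291 and 4778 in continuous larvae, a call that ended when scaled by library size (-0.79).

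In the citric acid cycle 14 of 22 genes fell and none rose, with a median of -1.26, and 9 fell when scaled by library size. The citrate synthase gene cts-1 had 822, 747 and 777 normalised CPM in just-fed dauer and 1600, 1756 and 1859 in continuous larvae (-0.84 and not called when scaled by library size). The cytosolic isocitrate dehydrogenase gene idh-1 stood out for its change within dauer, at 158, 374 and 576 normalised CPM, while continuous larvae had 1552, 1673 and 1264, and it lost its call without the dauer library of 2 hours (-2.02). In glycolysis 14 of 18 tested genes were lower, with a median of -1.46, and none rose (9 lower when scaled by library size). The enolase gene enol-1 had 109.9, 150.4 and 216 normalised CPM in just-fed dauer and 989, 1045 and 1121 in continuous larvae, 6.63-fold lower, and the pyruvate kinase gene pyk-2 had 7.90, 20.1 and 26.1 in just-fed dauer and 135, 138 and 132 in continuous larvae. Both had a higher value at each later hour of dauer, and none of these reached the continuous level.

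The glyoxylate and gluconeogenic enzymes that make sugar from fat are known to be favoured in dauer, and their transcripts were lower here too. All but 1 of the 6 tested genes fell, with a median of -2.28. Icl-1, the bifunctional glyoxylate enzyme, had 86.2, 121 and 51.5 normalised CPM in just-fed dauer and 439, 244 and 446 in continuous larvae (log2 fold change -2.13 ± 0.38, edgeR adjusted p = 0.00666). Pck-2, a phosphoenolpyruvate carboxykinase gene, had 236, 282 and 297 in just-fed dauer and 1766, 1617 and 1649 in continuous larvae, 6.18-fold lower. In sugar storage 5 of 12 genes fell and none rose. The glycogen phosphorylase gene pygl-1 had 48.1, 39.8 and 53.7 normalised CPM in just-fed dauer and 419, 483 and 588 in continuous larvae, and the glycogen synthase gene gsy-1 had 26.7, 29.9 and 36.2 in just-fed dauer and 190.0, 212 and 204 in continuous larvae. The trehalase gene tre-3 was high at the first hour alone, at 353, 66.99 and 44.996 normalised CPM in just-fed dauer and 49.6, 52.5 and 46.8 in continuous larvae, and did not pass the test.

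Genes of fat synthesis and fat breakdown fell more often than they rose. Of 22 tested synthesis genes 12 fell and 2 rose, and of 29 tested breakdown genes 13 fell and 1 rose (8 fell without the continuous library of 23 hours). The delta-9 desaturase gene fat-7 had 0.0376, 0.0872 and 0.197 normalised CPM in just-fed dauer and 12.18, 18.3 and 21.2 in continuous larvae, and its relative fat-5 had 2.67, 3.23 and 3.59 in just-fed dauer and 37.2, 52.97 and 82.6 in continuous larvae. Fatty acid synthase, fasn-1, had 619, 665 and 654 normalised CPM in just-fed dauer and 1810, 2368 and 1935 in continuous larvae, a call that was lost against hours 21 to 28 (-0.84). In breakdown, the enoyl-CoA hydratase gene ech-6 had 40.8, 54.3 and 126 in just-fed dauer and 959, 1005 and 1072 in continuous larvae, and the acyl-CoA dehydrogenase gene acdh-1 had 112.2, 155 and 720.1 in just-fed dauer and 2261, 2528 and 2500 in continuous larvae. Both were highest at 3 hours within dauer, and acdh-1 lost its call without the dauer library of 2 hours or the continuous library of 22 or 23 hours (-2.54, -2.86 and -2.89). The fat carrier gene lbp-6 had 13.7, 16.7 and 40.3 normalised CPM in just-fed dauer and 544, 548 and 541 in continuous larvae, 23.1-fold lower, and 8 of 16 tested fat-binding genes fell with it while none rose. The members that rose were the carnitine palmitoyltransferase gene cpt-1, the lipid regulator gene sbp-1 (log2 fold change 1.13 ± 0.26) and the elongase gene elo-8 (1.74 ± 0.28). Cpt-1 had 288, 521 and 149.7 normalised CPM in just-fed dauer and 126, 102 and 141 in continuous larvae. The sign of elo-8 depended on the hours, at -1.99 against hours 29 to 31. The call of sbp-1 ended without the continuous library of 22 or 23 hours (1.06 and 0.91). That of cpt-1 (edgeR adjusted p = 0.043) ended when any library other than that of 3 hours was left out, and its log2 fold change was then between 0.84 and 1.47.

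Genes of ribosome assembly stood on the other side. The 30 nucleolar and ribosome biogenesis genes made up 1.11, 1.18 and 1.26% of counts in just-fed dauer and 0.564, 0.525 and 0.479% in continuous larvae. Of the 30, 9 rose and 1 fell, against 13.8% higher and 16.7% lower of all tested genes. Above all 16 continuous libraries were 26, against 22.5% of all tested genes, and the median log2 fold change was 0.92. As most lay just under a change of 1, the number that rose went to 20 when scaled by library size and to 18 with upper-quartile factors, and to 5 without the continuous library of 23 hours. The pescadillo homologue lpd-7 had 1115, 931 and 876 normalised CPM in just-fed dauer and 305, 285 and 268 in continuous larvae (log2 fold change 1.77 ± 0.13, edgeR adjusted p = 0.00058). Nst-1, the worm nucleostemin, had 579.9, 553 and 497 in just-fed dauer and 247, 232 and 198 in continuous larvae, and rpoa-1, the largest subunit of RNA polymerase I, had 340.0, 334 and 336 in just-fed dauer and 174, 168 and 152 in continuous larvae. The fibrillarin gene fib-1 was higher at each later hour of dauer, at 1280, 1620 and 2040 normalised CPM, against 914, 926 and 992 in continuous larvae, and stayed under the fold threshold (0.80). The gene that fell was ncl-1, known as a repressor of nucleolar size and ribosomal RNA synthesis, at 27.7, 34.7 and 46.5 in just-fed dauer and 71.0, 101 and 72.7 in continuous larvae. The calls of rpoa-1 and ncl-1 ended without the continuous library of 23 hours and of 22 hours, each by falling short of the fold threshold.

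The ribosome itself did not follow. Of 78 tested ribosomal protein genes 1 rose and none fell (17 lower at an unadjusted p under 0.05, none by DESeq2), with a median of -0.12, and the one that rose, rpl-24.2, encodes an assembly factor related to a ribosomal protein. Ribosomal proteins took 19.6, 19.7 and 20.996% of counts in just-fed dauer and 17.3, 17.5 and 17.6% in continuous larvae, shares that are not corrected for composition. None of 20 tRNA synthetase genes and none of 65 mitochondrial ribosome genes was called by edgeR or DESeq2, with medians of -0.07 and -0.41. At an unadjusted p under 0.05, 2 synthetase genes were higher and 3 lower, and 42 mitochondrial ribosome genes were lower. EdgeR called 1 of 32 translation factor genes, lower, but at an unadjusted p under 0.05 there were 10 higher and 3 lower. Of the 32, 12 were above all 16 continuous libraries and 1 was below them, against 22.5% and 17.0% of all tested genes. Proteasome genes leaned down together. Only 4 of 32 fell, but all 32 were below the 3 continuous libraries, against 31.1% of all tested genes, and 31 were below all 16.

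Few nutrient-sensing and autophagy genes were called. The AMP kinase subunit gene aak-2 had 22.05, 28.4 and 33.3 normalised CPM in just-fed dauer and 83.2, 77.2 and 75.9 in continuous larvae, 2.82-fold lower, and hlh-30, the worm TFEB and a regulator of autophagy and lysosome genes, had 378, 314 and 256 in just-fed dauer and 161, 128 and 137 in continuous larvae. Of 24 autophagy genes 2 rose and none fell. The LC3-family gene lgg-2, on chromosome IV at 10934196 to 10935903 in WBcel235, had 297, 258 and 94.6 normalised CPM in just-fed dauer and 27.6, 19.3 and 22.3 in continuous larvae, 9.37-fold higher (edgeR adjusted p = 0.00316). It was already lower at 3 hours than at 1 and 2 hours. The lipid transfer gene atg-2 had 144, 179.9 and 96.3 in just-fed dauer and 59.0, 45.6 and 47.1 in continuous larvae.

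**Figure D2:**
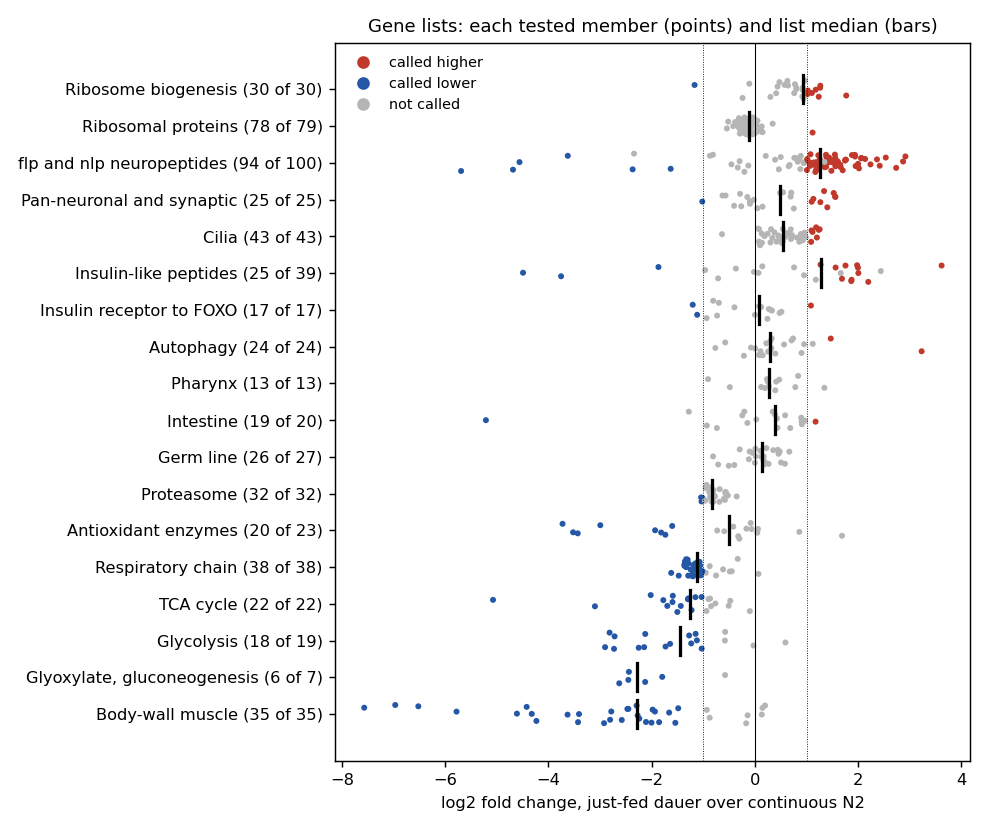
Log2 fold change (x axis, just-fed dauer over continuous) of every tested member of selected gene lists (rows), 1 point per gene, with called members coloured by direction and the list median as a bar. Muscle and energy lists lie left of 0, neuropeptide genes lie right of it, and ribosomal protein genes lie around it.

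Genes of body-wall muscle were far lower. The 35 contractile genes made up 0.417, 0.441 and 0.449% of all counts in just-fed dauer, against 3.13, 2.87 and 2.77% in continuous larvae, and the range over continuous hours 21 to 28 was 2.73 to 3.28%. Of the 35, 28 fell and none rose, with a median of -2.29. Those 28 were below all 16 continuous libraries, against 17.0% of all tested genes. The major myosin gene unc-54 had 58.8, 27.5 and 33.01 normalised CPM in just-fed dauer and 7908, 7436 and 7273 in continuous larvae, 189.5-fold lower (log2 fold change -7.57 ± 0.38, edgeR adjusted p = 0.000214). The second body-wall myosin, myo-3, had 4.93, 9.28 and 12.304 in just-fed dauer and 843, 819 and 769 in continuous larvae, and lies on chromosome V at 12226817 to 12234343 in WBcel235. Paramyosin, unc-15, had 90.7, 119.5 and 120.1 in just-fed dauer and 2722, 2628 and 2713 in continuous larvae, and the calponin-related gene clik-1 had 21.3, 17.1 and 16.01 in just-fed dauer and 2168, 2147 and 2481 in continuous larvae.

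Thin filament genes fell as well. Tropomyosin, lev-11, had 285, 369 and 376 normalised CPM in just-fed dauer and 1893, 1811 and 1933 in continuous larvae, and the log2 fold changes of the troponin genes pat-10, unc-27 and mup-2 were -4.42, -5.78 and -4.32. Genes of the attachment to the body wall also fell, with log2 fold changes of -2.58 for the vinculin deb-1, -1.54 for the integrin pat-3 and -3.63 for the perlecan unc-52. The muscle actin gene act-4 had 646, 783 and 842 normalised CPM in just-fed dauer and 3252, 3450 and 4018 in continuous larvae; act-1 and act-3 also fell, but these and act-2 are near-identical copies whose counts are uncertain. Among the 7 muscle genes not called were hlh-1, which encodes the muscle-fate transcription factor, at 11.8, 12.07 and 12.23 in just-fed dauer and 13.2, 15.5 and 11.96 in continuous larvae, and the dystrophin gene dys-1 at 229.7, 287 and 299 in just-fed dauer and 274, 243 and 226 in continuous larvae.

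None of 13 genes of the pharynx, the feeding organ, was called by edgeR, although 2 were higher and 1 lower at an unadjusted p under 0.05 and DESeq2 called 1 higher. Their median log2 fold change was 0.27, and they took 0.299, 0.363 and 0.371% of counts in just-fed dauer and 0.282, 0.188 and 0.117% in continuous larvae. The pharyngeal myosin gene myo-2 had 1132, 1268 and 1230 normalised CPM in just-fed dauer and 983, 648 and 401 in continuous larvae, a log2 fold change of 0.84 ± 0.31 with an edgeR adjusted p of 0.0674. Without the continuous library of 21 hours the same gene passed as higher (1.18).

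**Figure D3:**
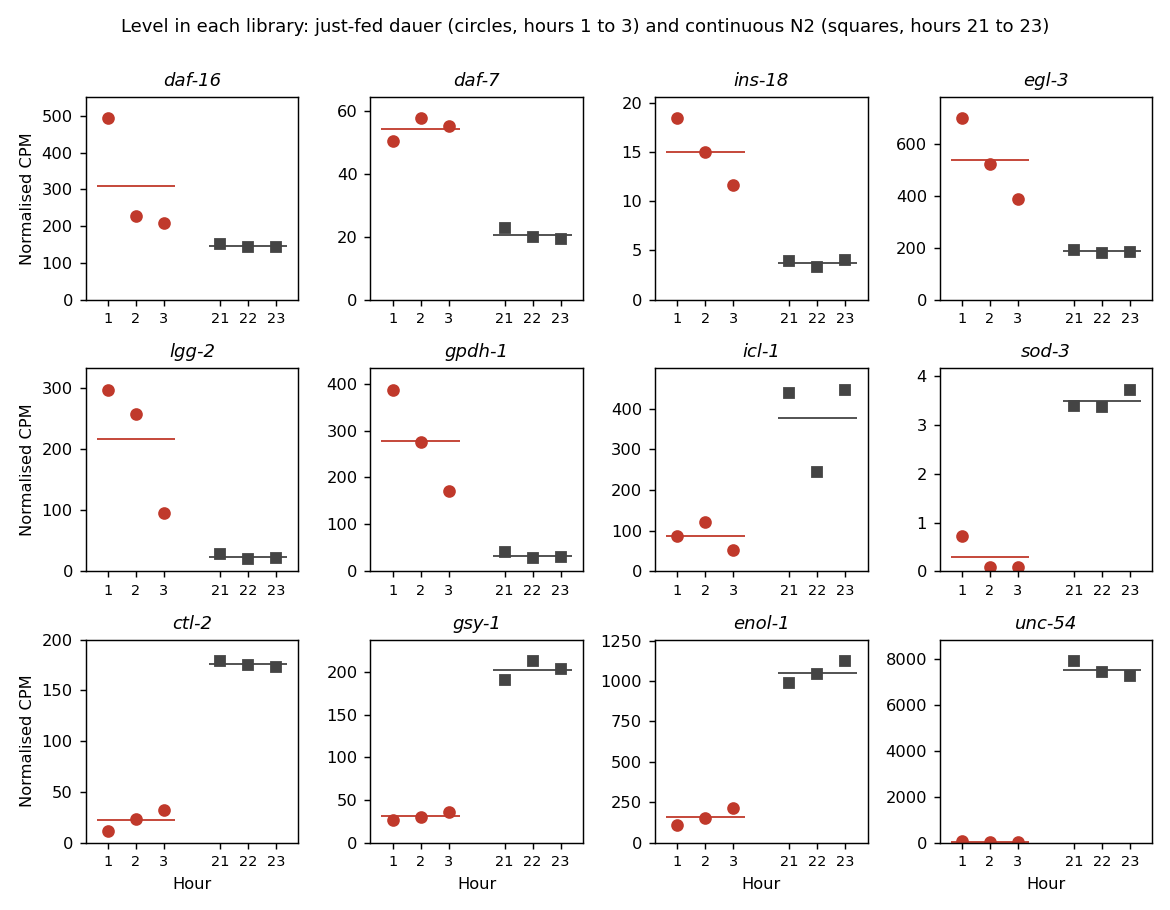
Normalised CPM in each library (y axis from 0, 1 point per library, just-fed dauer as circles left of continuous as squares) for 12 named genes of signalling, neuropeptide processing, autophagy, defence, metabolism and muscle, with a line at each mean. The unc-54 points sit between 27.5 and 58.8 in just-fed dauer and between 7273 and 7908 in continuous larvae.

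Neuropeptide genes rose as a group. The flp and nlp genes took 0.346, 0.261 and 0.215% of counts in just-fed dauer at 1, 2 and 3 hours, against 0.139, 0.116 and 0.108% in continuous larvae. Of 100 genes 94 were tested, 65 of which rose and 6 fell, and 71 were above all 16 continuous libraries, against 22.5% of all tested genes. The FMRFamide-like gene flp-32 had 37.9, 21.9 and 15.5 normalised CPM in just-fed dauer and 3.69, 3.47 and 3.14 in continuous larvae, 7.31-fold higher. The members that fell were in part not neuronal. Nlp-29, nlp-30, nlp-31 and nlp-34 encode antimicrobial-type peptides of the epidermis, and nlp-31 had 1.24, 0.479 and 0.789 normalised CPM in just-fed dauer and 36.01, 47.1 and 48.3 in continuous larvae. The other two were nlp-24 and nlp-4. The call of nlp-29 ended when any library other than that of 1 hour of dauer or 23 hours of continuous growth was left out, with log2 fold changes of -2.55 to -1.80.

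Of the genes of neuropeptide maturation and release, 3 are described that rose and 1 that fell. The proprotein convertase gene egl-3 had 699, 524 and 388 normalised CPM in just-fed dauer and 193, 180.1 and 186 in continuous larvae (log2 fold change 1.53 ± 0.22, edgeR adjusted p = 0.0033), the carboxypeptidase gene egl-21 had 557, 446 and 398 in just-fed dauer and 218, 213 and 208 in continuous larvae, and ida-1, a protein of dense-core vesicles, had 429, 321 and 251 in just-fed dauer and 126, 108 and 107 in continuous larvae. All 3 genes were highest at 1 hour and lowest at 3 hours within dauer, and egl-21 was at 0.99 and no longer called without the 1 hour library. The remaining parts of the synapse were mixed. Of 25 synaptic genes 8 rose and 1 fell. The vesicle priming gene unc-13 had 231, 249 and 173 normalised CPM in just-fed dauer and 80.4, 71.0 and 70.9 in continuous larvae, while the synaptotagmin gene snt-1 and the vesicle kinesin gene unc-104 had log2 fold changes of 0.55 and 0.69 and did not pass. The amidating enzyme gene pamn-1 was the one that fell (-1.02); it lost its call when scaled by library size (-0.69) and without the continuous library of 22 or 23 hours (-0.91 and -0.92).

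Of 20 transmitter genes 3 rose and 2 fell, near the background of 13.8% higher and 16.7% lower. The GABA synthesis gene unc-25 had 31.6, 25.4 and 21.7 normalised CPM in just-fed dauer and 71.8, 61.2 and 53.2 in continuous larvae, 2.36-fold lower, but its value lay within the range of the 16 continuous libraries and its call was lost against hours 29 to 31 (-0.36). The acetylcholine transporter gene unc-17 had 24.3, 20.4 and 18.8 in just-fed dauer and 18.98, 15.04 and 17.2 in continuous larvae and did not pass. Among 15 touch receptor genes 4 rose and none fell, and at an unadjusted p under 0.05 there were 6 higher and 3 lower. All 3 dauer libraries were above the continuous ones for 8 of the 15 and below them for 3. Of all tested genes 31.2% lay above and 31.1% below. The channel gene mec-4 had 9.41, 12.5 and 9.15 normalised CPM in just-fed dauer and 4.12, 4.57 and 3.38 in continuous larvae.

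Of 43 cilium genes 7 rose, near the background of 13.8% higher, and none fell. Of the 43, 31 were above all 16 continuous libraries, against 22.5% of all tested genes. The kinesin gene osm-3, which carries cargo along sensory cilia, had 8.62, 7.41 and 7.69 normalised CPM in just-fed dauer and 4.71, 3.19 and 3.19 in continuous larvae, and was at 0.99 or 0.98 without the continuous library of 22 or 23 hours. The count that rose was 17 when scaled by library size, 15 with upper-quartile factors, and 4 without the continuous library of 23 hours. Chemoreceptor genes, which are active in few neurons each, were near the detection limit. The 1295 genes in the table together took 0.102, 0.0772 and 0.0544% of counts in just-fed dauer and 0.0316, 0.0230 and 0.0212% in continuous larvae, and 146 had no count in just-fed dauer against 443 with none in continuous larvae. Only 221 passed the low-count filter, of which 157 were higher and 6 lower. The filter admits a gene that is high in 1 group alone, so these counts do not describe the family. The receptor gene str-44 had 5.19, 3.23 and 1.42 normalised CPM in just-fed dauer and no count in continuous larvae, at least 67.8-fold higher if the group total is set at 3 counts.

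Furrow collagens and most col collagens had few or no counts in just-fed dauer. How far both groups were below continuous larvae depends on the hours they are set against. The 6 furrow collagens, which place the ring-shaped furrows of the cuticle, took 0.000168, 0.0000578 and 0.000203% of counts in just-fed dauer and 0.104, 0.367 and 0.529% in continuous larvae. All 6 were below all 16 continuous libraries, against 17.0% of all tested genes. Over hours 21 to 28 the furrow share was between 0.0110 and 0.529%, so hours 21 to 23 include its peak. Dpy-7, one of the 6, on chromosome X at 7536467 to 7537792 in WBcel235, had 0, 0.0872 and 0 normalised CPM in just-fed dauer and 198, 623 and 986 in continuous larvae. The 156 col collagens took 0.0176, 0.0147 and 0.0211% of counts in just-fed dauer and 1.09, 0.720 and 0.834% in continuous larvae, but between 0.720 and 3.91% over hours 21 to 28, so hours 21 to 23 lie at the low end of that cycle. Of the 156, 35 had no count in just-fed dauer and 16 had none in continuous larvae. The low-count filter passed 90, of which 79 fell and 3 rose. As it admits a gene that is high in 1 group alone, these counts do not describe the whole family. Col-17 had no count in just-fed dauer and 55.2, 301 and 1398 normalised CPM in continuous larvae, at least 14596-fold lower by the same limit of 3 counts per group.

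Genes that build or remodel the cuticle fell beside the collagens. Of 25 molting and apical matrix genes 19 fell and none rose. The protease inhibitor gene mlt-11 had 0.301, 0.174 and 0.197 normalised CPM in just-fed dauer and 571, 1727 and 1831 in continuous larvae, and the hedgehog-related gene wrt-2 had 0, 0.131 and 0.0394 in just-fed dauer and 22.8, 199 and 567 in continuous larvae. Among 15 regulators of the molting cycle 9 fell, and 4 of the 15 fell against hours 21 to 36. The period homologue lin-42, a timer of molts, had 5.98, 3.31 and 4.85 normalised CPM in just-fed dauer and 141, 424 and 776 in continuous larvae, and bed-3, another transcription factor gene of molting, had 3.12, 2.53 and 2.52 in just-fed dauer and 10.8, 19.6 and 62.1 in continuous larvae. Both were below all 16 continuous libraries. The nuclear receptor gene nhr-23, needed for molting, had 32.7, 20.9 and 30.8 in just-fed dauer and 102, 129 and 80.0 in continuous larvae, but it lay within the range of the 16 and lost its call against hours 21 to 28 (-1.18).

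Few genes of the intestine were called. Of 19 tested intestinal genes 1 rose and 1 fell, against 13.8% higher and 16.7% lower of all tested genes. The peptide transporter gene pept-1 had 1624, 1003 and 851 normalised CPM in just-fed dauer and 515, 572 and 454 in continuous larvae, with the first hour highest, and it dropped under the fold threshold without the 1 hour library (0.85). The gut esterase gene ges-1 had 0.753, 0.915 and 1.85 in just-fed dauer and 33.5, 47.2 and 50.2 in continuous larvae, 37.01-fold lower. Among 23 tested digestive protease genes 3 rose and 6 fell, against the same background. The cathepsin gene cpr-6 had 12.7, 3.84 and 9.62 normalised CPM in just-fed dauer and 142, 422 and 1003 in continuous larvae, while cpr-2 had a log2 fold change of 4.55 ± 0.29.

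Large gene families of defence and detoxification held members that rose and members that fell. The background for these counts is 13.8% higher and 16.7% lower over all tested genes. C-type lectins, secreted proteins many of which respond to infection, took 0.436, 0.422 and 0.303% of counts in just-fed dauer and 0.395, 0.385 and 0.404% in continuous larvae (exact permutation p = 1.0, two-sided), and of 240 genes 105 were tested, 22 of which rose and 22 fell (13 and 14 without the continuous library of 22 hours). Clec-180 had 0.715, 0.523 and 0.552 normalised CPM in just-fed dauer and 64.6, 312 and 543 in continuous larvae. Lysozyme and antimicrobial peptide genes numbered 95, of which 53 were tested, 5 rose and 20 fell (between 3 and 9 rose as single libraries were left out). The caenacin gene cnc-6 went against most of its list, with 42.5, 10.98 and 5.44 normalised CPM in just-fed dauer and no count in continuous larvae, at least 406-fold higher by the limit of 3 counts per group, whereas the lysozyme gene lys-7 had 1.47, 0.261 and 0.434 in just-fed dauer and 44.9, 62.3 and 75.2 in continuous larvae. Of 55 tested cytochrome P450 genes 7 rose, near the background, and 22 fell (between 3 and 8 rose as single libraries were left out). The xenobiotic-responsive cyp-35A2 had 0.602, 0.305 and 1.104 normalised CPM in just-fed dauer and 33.9, 81.7 and 140.3 in continuous larvae. Of 216 tested nuclear hormone receptor genes, out of 274 in the table, 60 rose and 18 fell. Without the continuous library of 22 hours 34 rose, and without the dauer library of 2 hours 11 fell.

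Some timing genes were called in each direction. Of 14 heterochronic genes, which order larval cell fates, 3 rose and 3 fell. Over all tested genes the shares were 13.8% higher and 16.7% lower. Lin-14, which specifies early larval fates, had 204, 131 and 115 normalised CPM in just-fed dauer and 71.6, 50.9 and 45.1 in continuous larvae, 2.68-fold higher (edgeR adjusted p = 0.00882), and lin-41, which holds back adult fates, had 657, 478 and 414 in just-fed dauer and 276, 206 and 124 in continuous larvae, a call lost without the continuous library of 22 hours (1.35). The factors that bring in the adult state were lower. Lin-29 had 18.7, 12.4 and 17.5 normalised CPM in just-fed dauer and 40.4, 94.6 and 117 in continuous larvae, and its cofactor mab-10 had 5.76, 4.84 and 6.55 in just-fed dauer and 39.2, 74.4 and 73.2 in continuous larvae. The value of lin-29, but not that of mab-10, lay within the range of the 16 continuous libraries.

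Cell cycle and germline genes were mostly not called. Of 29 replication and cell cycle genes 2 fell and none rose, and the G1 cyclin gene cyd-1 had 14.1, 13.2 and 9.35 normalised CPM in just-fed dauer and 26.5, 41.3 and 34.2 in continuous larvae, a call lost against hours 21 to 28 (-0.89). None of 26 tested germline genes was called by edgeR or DESeq2, with a median of 0.15, and at an unadjusted p under 0.05 there were 6 higher and 3 lower. The RNA polymerase II gene ama-1, used as an internal standard in worms, had 257, 291 and 322 normalised CPM in just-fed dauer and 235.08, 251 and 246 in continuous larvae. The transporter gene pmp-3, another such standard, had 74.4, 75.7 and 76.6 in just-fed dauer and 67.8, 72.0 and 71.8 in continuous larvae, and neither passed the test. Of the 9 reference genes listed, 2 fell and none rose: the muscle gene csq-1 (log2 fold change -3.67 ± 0.21) and act-1, whose count is uncertain as given above. The tubulin genes tba-1 and tbb-2 had log2 fold changes of -0.96 ± 0.12 and -0.95 ± 0.16, just under the fold threshold.

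Several of the genes with the widest gain were far higher at 1 hour than at 3 hours of dauer. M60.7, on chromosome X at 8257998 to 8261175 in WBcel235, had 788, 721 and 192 normalised CPM in just-fed dauer and 0.971, 0.999 and 2.11 in continuous larvae, 416-fold higher (edgeR adjusted p = 0.000982). The cuticlin-like gene cutl-14 had 1824, 1406 and 617 in just-fed dauer and 29.9, 13.8 and 9.70 in continuous larvae, and the acyltransferase gene oac-53 had 298, 36.8 and 5.64 in just-fed dauer and 0.825, 0.666 and 0.882 in continuous larvae. Y110A2AL.4 was steadier, at 86.8, 64.9 and 54.5 normalised CPM in just-fed dauer and 0.728, 0.714 and 0.735 in continuous larvae. F35E8.7 had 144, 10.8 and 1.85 normalised CPM in just-fed dauer and no count in continuous larvae, at least 1080-fold higher by the limit of 3 counts per group, and its call was lost when the 2 hour library or any continuous library was left out. Oac-53 lost its call without the continuous library of 22 or 23 hours (7.03 and 7.22). The 1 hour library holds nearly all of the signal of oac-53 and F35E8.7.

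Expression differed between the hours of both windows. Of the 1916 genes higher in just-fed dauer, 1563 (81.6%) were lower at 3 hours than at 1 hour, with a median log2 change of -0.47, and for 380 the value at 3 hours was lower by at least 2-fold. Of the 2313 lower genes, 1528 (66.1%) were higher at 3 hours than at 1 hour, with a median log2 change of 0.20. Within continuous larvae, from 21 to 23 hours, the median log2 change was -0.18 for the higher and 0.26 for the lower genes. The median absolute log2 difference over 13838 genes was 0.287 between 1 and 3 hours of just-fed dauer and 0.277 between 21 and 23 hours of continuous larvae. Over all tested genes 49.1% were lower at 3 hours than at 1 hour of dauer. With 1 library per hour these are differences between single libraries and were not tested.

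The time at which dauer-exit libraries first came within the range of continuous hours 21 to 36 differed by gene group. Genes were taken as outside the range at hours 1 to 3, so none could enter it in those hours. Medians are over the genes that entered by 22 hours. Over the called genes outside that range, the median first hour was 7 for the higher and 8 for the lower genes. Of these, 17 of the 1538 higher and 111 of the 1674 lower genes did not enter by 22 hours. Among the 67 neuropeptide genes outside it the median was 6 hours and among the 10 ribosome biogenesis genes 11.5 hours. For the glycolysis genes that entered it was 14 hours, and 2 of the 13 did not enter by 22 hours. Of the 28 body-wall muscle genes that fell, 17 did not enter the range by 22 hours, unc-54, unc-15, clik-1, lev-11 and act-4 among them. The muscle share of counts was still 0.434% at 8 hours, was 1.87% at 12 hours and 2.28% at 22 hours, below the continuous range. For each gene this is the first hour inside a range set by 16 libraries, a description with no error of its own.

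**Figure D4:**
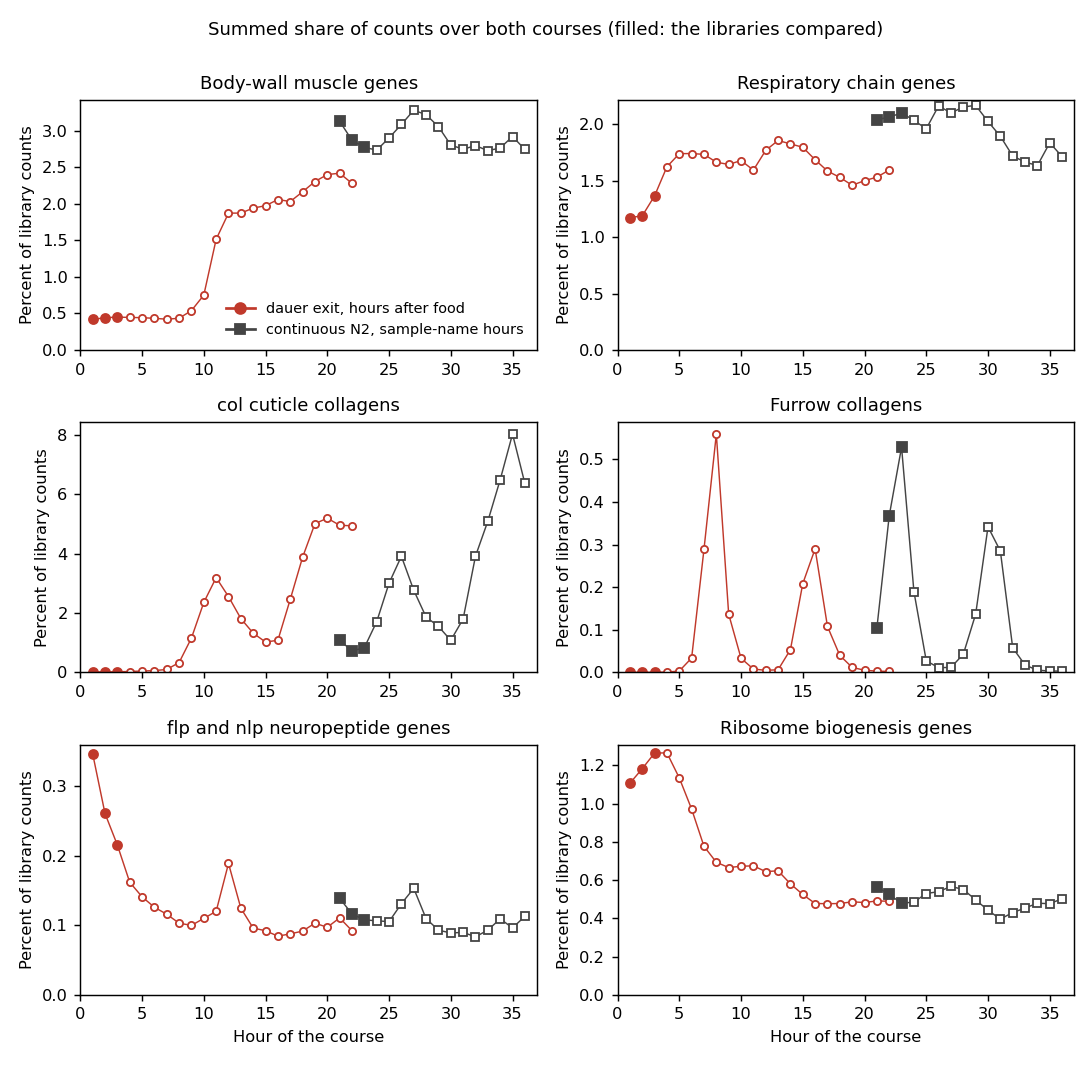
Share of all counts (y axis, percent) taken by selected gene lists along the dauer-exit course (hours after food) and the continuous course (sample-name hours), with the libraries compared here as filled points. Body-wall muscle genes stay at or below 0.449% through hour 8 of dauer exit, against 2.73 to 3.28% in continuous larvae over hours 21 to 28.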

How the data were processed

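The authors deposited a table of raw read counts per gene and a table of log2 expression values for the same libraries. Per the labels, libraries were made from total RNA of whole worms with a stranded mRNA kit. The aligner, counter, annotation and genome build were not given in the sources used here, and coordinates and symbols come from WBcel235 tables, which named 18778 of 20182 gene identifiers (93.0%). The log2 table was checked against the counts and not used further.

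The deposited counts went into edgeR 4.0.16 (R 4.3.3) with filterByExpr, TMM factors, a quasi-likelihood F-test on 6 libraries with group as the only term, and Benjamini-Hochberg adjustment over 13863 genes. A gene was called at an adjusted p under 0.05 and an absolute log2 fold change of at least 1. The standard error was taken as the log2 fold change divided by the square root of F. Normalised CPM are counts scaled to CPM with the edgeR effective library size, and comparisons with whole courses used TMM factors of all 38 N2 libraries. Shares are percent of all counts, with an exact two-sided permutation test. The fit was tested on simulated data. No 2 libraries agreed within sampling noise.

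The members and the 59 gene lists were chosen with earlier results of these data known. Named genes are up to 10 per direction with the largest change and a mean of at least 50 CPM, up to 3 called genes per list and direction, and a fixed set. Named after their values were seen were acdh-1, acox-1.1, act-2, atp-2, daf-11, daf-14, deb-1, dys-1, egl-21, fasn-1, hlh-1, ins-1, ins-6, lev-11, lys-7, mup-2, nhr-23, nlp-29, nlp-30, nlp-34, osm-3, pat-10, pat-3, prdx-2, rpoa-1, snt-1, sod-1, tax-2, tba-1, tbb-2, tre-3, unc-104, unc-15, unc-27 and unc-52. Alternatives were other scalings, DESeq2 1.42.0, other thresholds, no filter, an hour term, other continuous hours and leaving out each library.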

Additional observations from a re-analysis of the deposited data

How the results depend on the processing

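The counts of higher and lower genes kept within 1.5 times under RLE size factors, library size, upper-quartile factors, no low-count filter, DESeq2, an hour term in each group and continuous hours 21 to 28. An adjusted p under 0.01 gave 1159 higher genes, no fold threshold gave 3176 higher and 3483 lower, and edgeR's glmTreat, which tests against a change of 1, gave 672 higher and 1423 lower. Set against hours 29 to 31 the counts were 3054 and 3688, and against all hours 21 to 36, a choice made after seeing the data, 3554 were lower. The causes were not tested. Without single libraries, between 1337 and 2266 genes were higher and between 1912 and 2430 lower. The differences in share of counts, in percentage points, then ranged from -2.56 to -2.38 for body-wall muscle, -0.888 to -0.792 for the respiratory chain, -0.944 to -0.759 for col collagens, 0.117 to 0.183 for neuropeptides, 0.0405 to 0.0644 for chemoreceptors and 0.622 to 0.701 for ribosome biogenesis. The col collagen difference was -0.863 in the main comparison and -1.97 against hours 21 to 28, which include its peak. Among named genes, the sign changed for genes near 0. The log2 fold change of daf-2 was 0.30 by library size, 0.22 with upper-quartile factors, 0.0021 with an hour term, 0.25 against hours 21 to 28 or 29 to 31, 0.42 against hours 21 to 36, and -0.103 to 0.0527 without single libraries. That of daf-12 was 0.12, 0.86 and 0.60 against hours 21 to 28, 29 to 31 and 21 to 36. That of hlh-1 was 0.14 by library size, 0.0524 with upper-quartile factors, and 0.56 and 0.40 against hours 29 to 31 and 21 to 36. That of elo-8 was -1.99 and -2.69 against the same hours. No paired analysis was possible because the labels give the groups no shared replicate numbers, only hours of different courses. Depth limits what can be said of chemoreceptors and of the dauer cuticle genes col-2, col-40 and cut-1, which have few counts.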
